A study of Mus musculus with 6 samples.

Results

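Homeostatic microglia signature genes are genes that microglia, the resident macrophages of the brain, express strongly in undisturbed tissue and that set them apart from most other macrophages. The 9 genes described here were P2ry12, P2ry13, Gpr34, Cx3cr1, Fcrls, Siglech, Tmem119, Olfml3 and Sall1. They were found by an exact match of the gene symbol among 23366 genes, and all 9 passed the filter on low values, with 14385 genes tested in all.

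RNA of the frontal cortex was sequenced from 3 mice 10 days after their microglia were ablated (depleted mice A4, A5 and A6) and from 3 littermates with no ablation (control mice A1, A2 and A3), on the C57BL/6 background and with 1 library per mouse. Depleted mice were CX3CR1-CreERT2+/- iDTR+/- and control mice were CX3CR1-CreERT2+/- without iDTR. In this system tamoxifen activates a Cre recombinase that is driven by the Cx3cr1 gene, Cre switches on the diphtheria toxin receptor, and toxin then kills the cells that carry it. Both groups carried the Cre allele at Cx3cr1 and were given tamoxifen, and the methods do not state whether control mice received toxin. The labels give no age, litter, batch or date. The paper reports that nearly all microglia were lost soon after toxin and that the cells had repopulated by d10. It describes more cells with the microglial marker Iba1 in gray matter at that time. The word depleted thus names the group here and does not mean that microglia were absent. In bulk cortex, a change in the number of microglia and in RNA of a gene per microglial cell cannot be told apart.

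P2ry12 and P2ry13 encode receptors for extracellular ADP, and P2ry12 steers microglial processes towards injured cells. Cx3cr1 is the receptor of the neuronal chemokine fractalkine, and Gpr34 is a receptor for lysophosphatidylserine. Fcrls and Siglech encode surface proteins of the Fc-receptor-like and sialic acid-binding families, Tmem119 a membrane protein, Olfml3 a secreted matrix protein, and Sall1 a transcription factor that helps to keep microglial identity. Expression of this set is known to depend on TGF-beta and on the myeloid factor PU.1, and it is known to fall when microglia become activated.

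At d10 the averages of the 9 genes differed in direction. Fcrls and P2ry12 were lower on average in depleted cortex, at 0.503 and 0.761 times the control mean, and Siglech was higher, at 1.21 times. The groups did not overlap in those 3 genes, as in 17.6% of all genes tested, and overlapped in the other 6. None of the 9 passed an adjusted p-value of 0.1 in limma, which 0.0278% of all genes tested did. The paper, which tested raw counts with another method at the same threshold, reports Fcrls and P2ry12 as downregulated. It also reports lower P2RY12 protein staining at d10 in spinal cord, medulla and thalamus gray matter. In microglia sorted at d10 it reports lower RNA of other homeostatic genes, such as Csf1r and Trem2, which are not among the 9.

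The start-site sequences of the 3 genes whose groups stood apart are shown, since these genes differed in direction although they are counted as 1 signature. Each is 250 bases before to 50 bases after the RefSeq start of the gene in GRCm38.p6, read along the gene's strand, at chr3:59262936-59263235 on the minus strand for P2ry12, chr3:87263475-87263774 on the minus strand for Fcrls and chr7:55767934-55768233 on the plus strand for Siglech. Capitals mark GAGGAA or its reverse complement TTCCTC (the core bound by PU.1) and CAGAC or its reverse complement GTCTG (the box bound by SMAD proteins, which carry TGF-beta signals), and no marked match overlapped another.
P2ry12: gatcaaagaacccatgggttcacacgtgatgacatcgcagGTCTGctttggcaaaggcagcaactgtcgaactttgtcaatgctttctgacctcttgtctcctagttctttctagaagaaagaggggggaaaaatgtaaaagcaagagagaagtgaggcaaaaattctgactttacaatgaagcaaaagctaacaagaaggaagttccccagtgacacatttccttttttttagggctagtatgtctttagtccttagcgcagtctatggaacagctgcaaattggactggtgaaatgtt
Fcrls: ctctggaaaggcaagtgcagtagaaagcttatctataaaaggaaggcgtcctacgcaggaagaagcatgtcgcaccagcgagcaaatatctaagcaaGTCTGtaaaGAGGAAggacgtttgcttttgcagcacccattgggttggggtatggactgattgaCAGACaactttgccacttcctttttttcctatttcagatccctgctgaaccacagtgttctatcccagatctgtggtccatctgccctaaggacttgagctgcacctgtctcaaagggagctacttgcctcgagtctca
Siglech: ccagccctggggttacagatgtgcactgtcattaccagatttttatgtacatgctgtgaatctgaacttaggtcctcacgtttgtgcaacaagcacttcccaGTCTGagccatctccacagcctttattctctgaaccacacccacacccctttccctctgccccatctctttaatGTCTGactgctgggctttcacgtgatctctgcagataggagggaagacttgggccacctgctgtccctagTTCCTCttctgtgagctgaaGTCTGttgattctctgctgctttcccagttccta

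Of the 9 genes, 7 had a RefSeq promoter entry and 2, Tmem119 and Gpr34, had none. GAGGAA was found on either strand in 3 of the 7, with 1 match each in Fcrls, Siglech and P2ry13, and 28.3% of all 32817 promoters of this length held it. CAGAC was found in 5 of the 7, with 3 matches in Siglech, 2 each in Fcrls and Cx3cr1, and 1 each in P2ry12 and Sall1, against 49.6% of all promoters. Fcrls, which was lower on average, and Siglech, which was higher, thus both held both motifs in these windows, and Olfml3 held neither. Sall1 had 3 entries, 1 with a match and 2 with none, so by entry, as for all promoters, CAGAC was in 5 of 9 and GAGGAA in 3 of 9. These matches are a description of the letters in the windows.

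The cortical libraries were made to look for pathways behind neurodegeneration and microgliosis in this model. Values are in FPKM, fragments scaled by transcript length and by library size, so levels can be compared between genes. The 9 genes ran from 2.27 to 13.3 FPKM over the 6 mice. Differences are given as log2 fold changes of FPKM + 1, depleted minus control, a scale that understates the change of low genes. With 3 mice per group, the smallest two-sided p that exact permutation allows is 0.1.

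**Figure D1:**
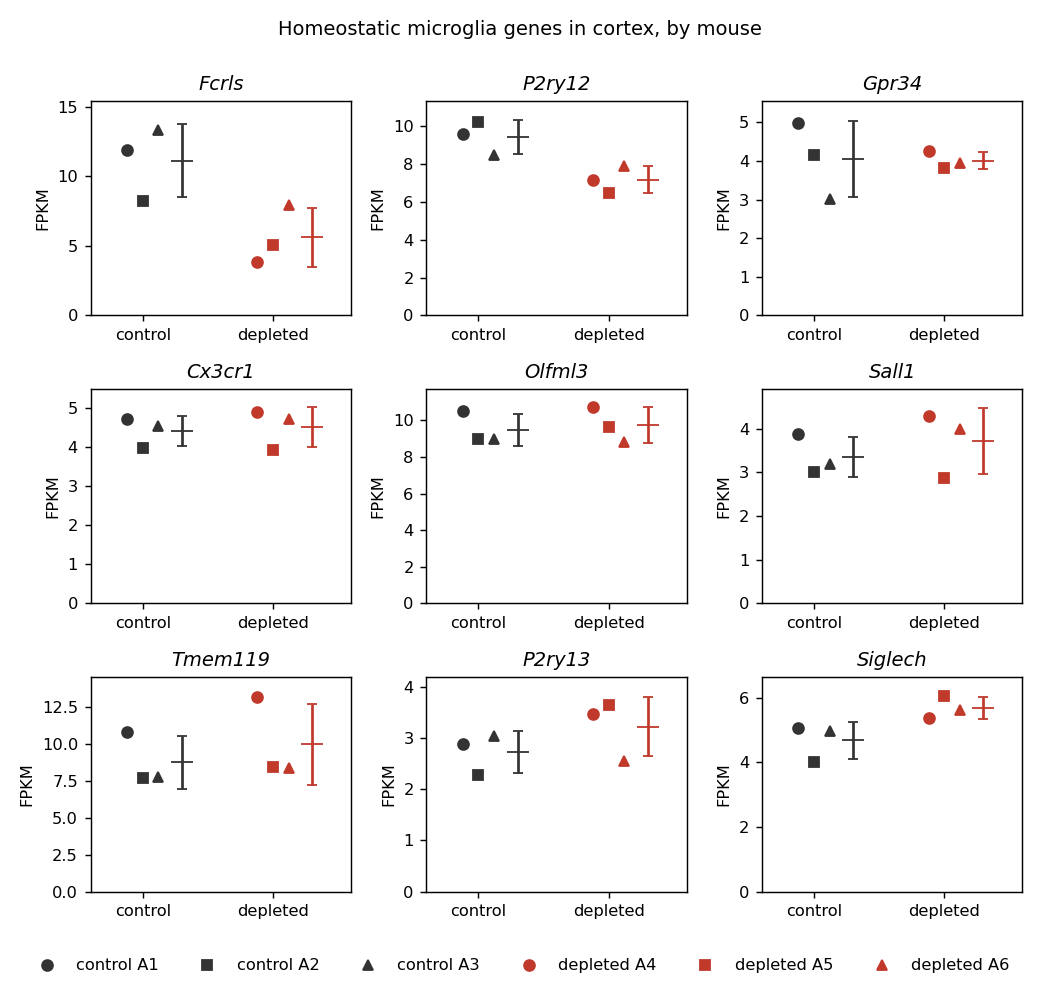
FPKM (y axis, from 0) of each of the 9 genes in the 3 control mice (black) and the 3 depleted mice (red), with the mean and SD of each group beside the points. Depleted mice lay below every control in Fcrls and P2ry12 and above every control in Siglech, and the groups overlapped in the other 6 genes.

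P2ry12 was at 9.57, 10.24 and 8.50 FPKM in control mice A1, A2 and A3 and at 7.18, 6.45 and 7.91 FPKM in depleted mice A4, A5 and A6. Every depleted mouse was below the lowest control. The means were 9.44 ± 0.878 and 7.18 ± 0.730 FPKM (SD, n = 3 each, exact permutation p = 0.1), and the log2 fold change was -0.35 with an SE of 0.11 (95% interval -0.61 to -0.091, limma adjusted p = 0.390).

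P2ry13, the neighbouring ADP receptor gene, was at 2.89, 2.27 and 3.04 FPKM in the controls, against 3.48, 3.64 and 2.56 FPKM in depleted mice. Depleted mice A4 and A5 were above every control and A6 was within the control range. The log2 fold change was 0.18 with an SE of 0.15 (95% interval -0.18 to 0.53, limma adjusted p = 0.705). P2ry12 was 3.31, 4.51 and 2.80 times P2ry13 in control mice and 2.06, 1.77 and 3.09 times in depleted mice. This pair was chosen after the values were seen, and its groups overlapped (exact permutation p = 0.2).

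Cx3cr1, whose regulatory sequence drives the Cre in both groups, was at 4.74, 3.99 and 4.54 FPKM in the controls, against 4.91, 3.94 and 4.72 FPKM in depleted mice. The ranges almost coincided, with A5 the lowest and A4 the highest of the 6 mice. The difference was 0.025 with an SE of 0.12 on the log2 scale (95% interval -0.26 to 0.31, limma adjusted p = 0.960). On the fold scale of FPKM + 1 this interval leaves room for a decrease to 0.835 times and an increase to 1.24 times.

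Gpr34 was at 4.99, 4.16 and 3.02 FPKM in the controls, against 4.25, 3.82 and 3.96 FPKM in depleted mice. All 3 depleted mice lay inside the control range, whose lowest value came from A3. The means were 4.06 ± 0.989 and 4.01 ± 0.219 FPKM (SD, n = 3 each, exact permutation p = 1.0), and the log2 fold change was 0.0049 with an SE of 0.16 (limma adjusted p = 0.993). Gpr34 lies on the X chromosome, and A3 also stood apart in Xist, the RNA that silences an X chromosome in female cells, with 4.74 FPKM against 30.9 to 46.7 FPKM in the other mice. The summed level of 4 Y-linked genes was 0.0 FPKM in A3. Without A3 the log2 fold change of Gpr34 was -0.15. A link between Xist and Gpr34 in this 1 mouse was not tested.

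Fcrls showed the largest difference in group means among the 9 genes, with 11.88, 8.19 and 13.30 FPKM in control mice and 3.83, 5.05 and 7.91 FPKM in depleted mice. Each depleted mouse was below the lowest control, although A6 at 7.91 FPKM came close to A2 at 8.19 FPKM. The means were 11.1 ± 2.64 and 5.60 ± 2.09 FPKM (SD, n = 3 each, exact permutation p = 0.1). The log2 fold change was -0.90 with an SE of 0.24 (95% interval -1.45 to -0.35), and limma gave an unadjusted p of 0.00513 and an adjusted p of 0.370 in the fit over all genes.

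Siglech was at 5.05, 4.02 and 4.97 FPKM in the controls, against 5.38, 6.05 and 5.61 FPKM in depleted mice. Every depleted mouse was above every control, with A4 at 5.38 FPKM next to A1 at 5.05 FPKM. The means were 4.68 ± 0.573 and 5.68 ± 0.340 FPKM (SD, n = 3 each, exact permutation p = 0.1), and the log2 fold change was 0.24 with an SE of 0.12 (95% interval -0.037 to 0.51, limma p = 0.0810, adjusted p = 0.525). Siglech is also known from plasmacytoid dendritic cells. Of genes of those cells and of lymphocytes, 2 of 11 reached the filter, Ly6d and Cd4, with log2 fold changes of -0.28 and -0.20. Ccr9, a defining gene of plasmacytoid dendritic cells, was at 0.13 FPKM or less in every mouse, and Gzmb was listed at 0 in all 6. The summed level of the 11 genes was 4.23 to 4.45 FPKM in control and 2.77 to 4.95 FPKM in depleted mice. Cd4 alone made up 1.98 to 3.08 FPKM of it over the 6 mice. The part of plasmacytoid dendritic cells in the level of Siglech was not tested.

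Tmem119 was at 10.83, 7.73 and 7.74 FPKM in the controls, against 13.17, 8.46 and 8.35 FPKM in depleted mice. In each group 1 mouse, A1 or A4, was well above the rest, and the other 4 mice lay close together. The means were 8.77 ± 1.79 and 9.99 ± 2.75 FPKM (SD, n = 3 each, exact permutation p = 0.5). The log2 fold change was 0.16 with an SE of 0.19 (95% interval -0.28 to 0.59, limma adjusted p = 0.795), and it turned to -0.039 without A4.

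Olfml3 was at 10.51, 8.97 and 8.98 FPKM in the controls, against 10.75, 9.65 and 8.82 FPKM in depleted mice. As for Tmem119, A4 and A1 gave the highest values, and the groups overlapped. The log2 fold change was 0.034 with an SE of 0.11 (95% interval -0.22 to 0.29, limma adjusted p = 0.937).

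Sall1 was at 3.87, 3.01 and 3.19 FPKM in the controls, against 4.29, 2.87 and 3.99 FPKM in depleted mice. The lowest and the highest of the 6 values both came from depleted mice. The log2 fold change was 0.11 with an SE of 0.16 (95% interval -0.25 to 0.46, limma adjusted p = 0.837).

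A4 gave the highest value of all 6 mice in 4 of the 9 genes, Cx3cr1, Olfml3, Tmem119 and Sall1, and the lowest in Fcrls. The same depleted mouse thus stood at opposite ends of the range for different genes of the set. A4 also differed from the others in Y-linked genes, whose summed level was 5.56 FPKM there and 0.16 FPKM or less in the other 5 mice, while the methods call the animals sex-matched. Xist was at 30.86 FPKM in A4, against 40.14 and 38.14 FPKM in A5 and A6, so A4 held both Xist and Y-linked RNA. The reason was not tested. Without A4 the log2 fold changes of Fcrls, P2ry12 and Siglech were -0.70, -0.35 and 0.27, and without A3 they were -0.77, -0.42 and 0.28.

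Over the whole set, 0 of 9 genes passed the adjusted p-value in limma. At an unadjusted p under 0.05 there were 2 of 9, Fcrls and P2ry12, both lower in depleted mice, where 10.5% of all genes tested passed (5.74% lower and 4.79% higher). The groups were apart in 3 of 9 genes, against 17.6% of all genes tested (9.38% lower and 8.21% higher). The log2 fold change was above 0 in 7 of the 9 against 48.0% of all genes, with a median of 0.034 against -0.0085. The median was -0.029 without A4 and 0.14 without A1, and 3 of these 7, Gpr34, Cx3cr1 and Olfml3, were close enough to 0 to turn negative with array weights. The count at an unadjusted p under 0.05 was 1 without A2, when P2ry12 had an unadjusted limma p of 0.0630, and 2 without any one of the other mice.

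**Figure D2:**
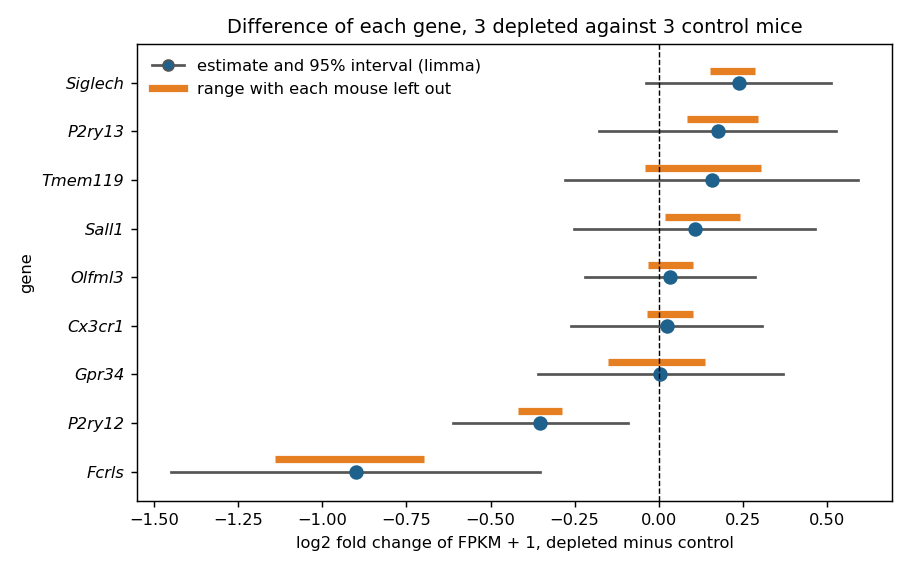
Log2 fold change of FPKM + 1 (x axis, depleted minus control) of the 9 genes, ordered by size, with the limma estimate and its 95% interval (grey) and the range of estimates when each mouse was left out in turn (orange). The intervals of Fcrls and P2ry12 lie below 0 and the other 7 cross 0. The ranges of Tmem119, Olfml3, Cx3cr1 and Gpr34 include 0.

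The 9 genes together were at 64.3, 52.6 and 57.3 FPKM in control mice and 57.2, 49.9 and 53.8 FPKM in depleted mice, and the groups overlapped (58.1 ± 5.91 and 53.7 ± 3.66, SD, n = 3 each). The make-up of that sum differed more than its size. Fcrls took 18.5%, 15.6% and 23.2% of it in control mice and 6.69%, 10.1% and 14.7% in depleted mice, with no overlap. The share of Siglech was 7.65% to 8.68% in control mice and 9.40% to 12.1% in depleted mice. A lower Fcrls raises the share of every other gene in the sum, so these shares are not independent.

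In control cortex Fcrls had the highest mean of the set, followed by Olfml3 (9.49 FPKM), P2ry12 (9.44 FPKM) and Tmem119 (8.77 FPKM), and neighbours among these 4 overlapped. A gap then separated them from Siglech (4.68 FPKM), Cx3cr1 (4.42 FPKM), Gpr34 (4.06 FPKM), Sall1 (3.36 FPKM) and P2ry13 (2.73 FPKM), where each again overlapped with the next. In depleted cortex Tmem119 (9.99 FPKM) and Olfml3 (9.74 FPKM) led and overlapped, P2ry12 (7.18 FPKM) stood apart from Olfml3 above it and from Siglech below it, and Fcrls (5.60 FPKM) was 5th. The last 4 places were taken by Cx3cr1, Gpr34, Sall1 and P2ry13, in the same order as in control mice.

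To ask whether the genes of the set differed from each other, each was set against the mean log2 level of the other 8 in the same mouse. On this scale the difference, depleted minus control, was -0.95 for Fcrls, -0.33 for P2ry12 and 0.33 for Siglech, with no overlap and an exact permutation p of 0.1 for each. The other 6 overlapped, from 0.069 for Gpr34 to 0.26 for P2ry13 (exact permutation p from 0.2 to 1.0). The share of all genes tested that were apart on this scale was not computed. Fcrls is part of the mean that each other gene was set against, so its lower level raises their values, that of Siglech included. Fcrls was 2.35, 2.04 and 2.68 times Siglech in control mice and 0.712, 0.835 and 1.41 times Siglech in depleted mice. This pair was also chosen after the values were seen, and its groups stood apart (exact permutation p = 0.1). In each depleted mouse Fcrls was below and Siglech above every control. Their ratio was therefore bound to stand apart, which adds nothing to their FPKM results.

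The 9 genes were then set beside myeloid genes that microglia share with other macrophages. Of 17 such pan-myeloid genes tested, 16 were higher on average in depleted mice and 1 was lower, with a median log2 fold change of 0.61. There were 9 at an unadjusted limma p under 0.05, all higher, against 4.79% of all genes tested. The groups were apart in 7, all higher, against 8.21% of all genes tested. Ctss, a lysosomal protease gene, had a log2 fold change of 1.07 and Aif1, which encodes the microglial marker Iba1, of 0.74, while Ptprc was at 0.14 and Coro1a at -0.10. Their summed level was 268 to 317 FPKM in control mice and 345, 438 and 590 FPKM in A5, A6 and A4. Without A4 the median was 0.31. No pan-myeloid gene passed an adjusted p-value of 0.1 in limma, and Spi1, the gene of PU.1, was not analysed here.

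Relative to the mean log2 level of these 17 genes in the same mouse, all 9 signature genes were lower on average in depleted cortex. The difference was -1.40 for Fcrls, -0.85 for P2ry12, -0.48 for Cx3cr1, -0.47 for Olfml3, -0.39 for Sall1 and -0.34 for Tmem119, and in these 6 the groups did not overlap (exact permutation p = 0.1 for each). Gpr34 (-0.50), P2ry13 (-0.32) and Siglech (-0.26) overlapped, with exact permutation p-values of 0.2, 0.4 and 0.4. Siglech was at -0.033 without A4 and -0.48 without A5, and P2ry13 at -0.17 and -0.58, while the other 7 genes moved by less than 1.5 times with any one mouse left out. On this scale 52.3% of all genes tested were apart in the lower direction and 0.431% in the higher, so a lower value relative to the myeloid genes was shared by much of the transcriptome. Fcrls and P2ry12 were the only members of the 9 that were apart and lower both in FPKM and relative to the myeloid level. The myeloid level was itself higher in every depleted mouse than in any control. A gene apart and lower in FPKM was therefore bound to be apart and lower here, which adds nothing to its FPKM result. With C1qa, C1qb and C1qc left out of the myeloid genes, an alternative chosen after the data were seen, Fcrls was at -1.37 and P2ry12 at -0.82, and Tmem119 was at -0.31 with groups that overlapped (exact permutation p = 0.2).

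**Figure D3:**
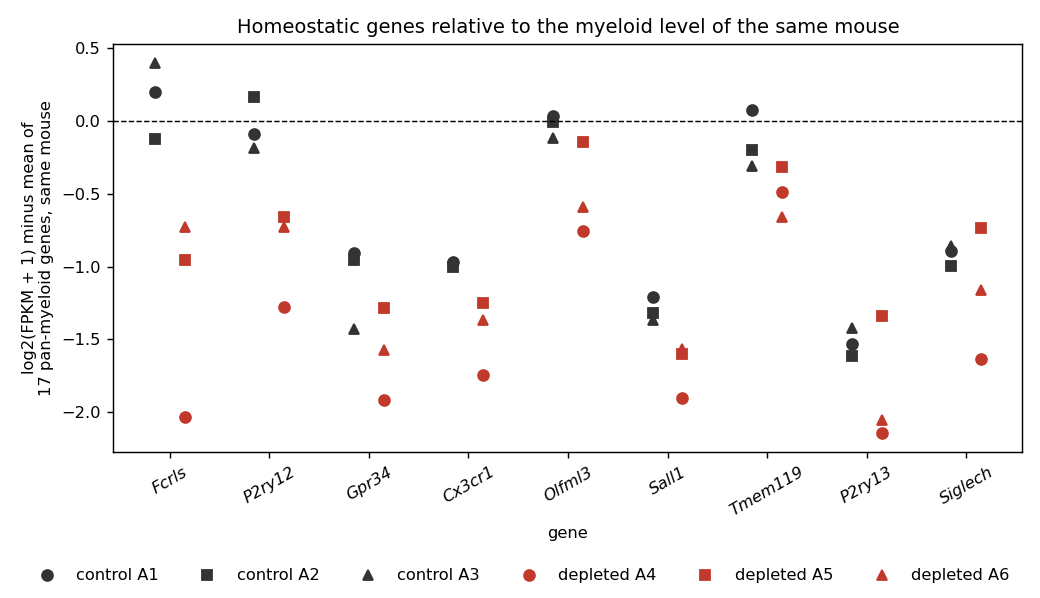
Log2(FPKM + 1) of each of the 9 genes minus the mean of 17 pan-myeloid genes in the same mouse (y axis), for control mice (black) and depleted mice (red). Depleted mice lie below all controls in 6 genes and overlap with controls in Gpr34, P2ry13 and Siglech. A4 is the lowest mouse in 8 of the 9.

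Other genes enriched in microglia gave a mixed picture. Of 20 tested from a list of 22, 12 were higher on average and 8 lower, with 6 at an unadjusted limma p under 0.05, all higher, and a median of 0.075 (0.035 to 0.20 with any one mouse left out). Of all genes tested, 4.79% were higher at that p. The highest were Lag3 (0.97) and the lipid receptor gene Trem2 (0.50), and the lowest were the phagocytic receptor gene Mertk (-0.26) and the sugar transporter gene Slc2a5 (-0.25). Csf1r, the growth factor receptor that microglia need to survive, was at -0.081 and overlapped between groups. In microglia sorted at d10 the paper reports Trem2, Csf1r and Entpd1 as lower, a level per cell that bulk cortex does not give.

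Of 16 activation genes tested from a list of 18, 14 were higher on average, and the median was 0.17, or 0.098 without A4. There were 5 at an unadjusted limma p under 0.05, all higher, against 4.79% of all genes tested. Cd52 (1.85) and the beta-glucan receptor gene Clec7a (1.26) were highest, and Lpl (-0.0078) and Apoe (-0.0076) were lowest. All 10 interferon-stimulated genes were higher in each depleted mouse than in any control, at an unadjusted limma p under 0.05 each, with a median of 1.86 and of 1.04 without A4. None of the 10 passed an adjusted p-value of 0.1 in limma. Of all genes tested, 8.21% were apart and higher. The paper, which tested raw counts, reports interferon pathway genes such as Stat2 and Oas1a as upregulated. The mouse with the strongest interferon genes, A4, had the least Fcrls and the most Tmem119, and 3 depleted mice are too few to relate these measures.

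Markers of other macrophages were low. Of 16 border macrophage and monocyte genes, 9 were tested, 3 higher and 6 lower on average, with a median of -0.19 (-0.13 to -0.037 with any one mouse left out and the filter set anew on the rest) and none of the 9 with groups apart. Ly6c2 (0.62) and Lyve1 (0.29) were highest, Pf4 (-0.85) and S100a9 (-0.64) lowest, and Ccr2, which defines circulating monocytes, was at 0.24 FPKM or less in every mouse. Their summed level was at least 12.2 FPKM in each control mouse and ranged from 7.38 FPKM in A6 to 15.6 FPKM in A5 among depleted mice. The part of these cells in the levels of the 9 genes was not tested.

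**Figure D4:**
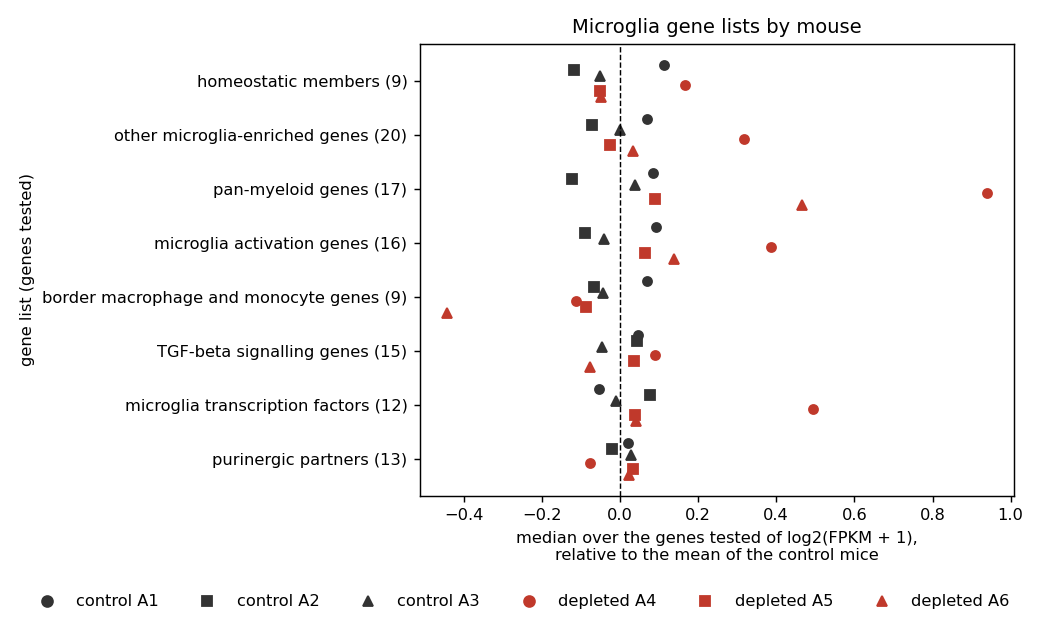
Median over the genes tested of log2(FPKM + 1) relative to the mean of the control mice (x axis), for 8 gene lists (y axis, number of genes tested in brackets) and each mouse. The 9 homeostatic genes lie between -0.12 and 0.17 in all mice, while the pan-myeloid genes reach 0.94 in A4 and 0.47 in A6.

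Ligands and adaptors of the 9 gene products were looked at as a group, together with Il34, Csf1 and Tgfb1, whose receptors are not among the 9. Of 8 genes, 6 were higher and 2 lower on average, with a median of 0.11 that was -0.034 without A4. There were 2 at an unadjusted limma p under 0.05, both higher, against 4.79% of all genes tested. Cx3cl1, the fractalkine gene, was at 216, 249 and 231 FPKM in control mice and 165, 227 and 211 FPKM in depleted mice, overlapping between groups with a log2 fold change of -0.21 (limma adjusted p = 0.561). Il34, a ligand of Csf1r made by neurons, was at -0.16. Tyrobp, the adaptor through which Siglech signals, was at 26.5, 21.1 and 29.0 FPKM in control mice and 54.1, 30.1 and 37.1 FPKM in depleted mice, with no overlap and a log2 fold change of 0.61 (limma adjusted p = 0.394). Siglech and Tyrobp were each higher in every depleted mouse than in any control, though Tyrobp in A5 (30.1 FPKM) was close to A3 (29.0 FPKM). Tyrobp is also 1 of the 17 pan-myeloid genes, of which 16 were higher on average, so its difference is not particular to Siglech. Cx3cr1 and its ligand were not separated from control. Hcst, another adaptor, was at 0.85.

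Among 13 purinergic genes tested, the enzymes and receptors that work beside P2ry12 and P2ry13 on extracellular nucleotides, 7 were higher and 6 lower on average, with a median of 0.0014. P2rx7 (0.41) and Adora3 (0.37) were highest, Adora2a (-0.39) and P2ry1 (-0.21) lowest, and P2rx4 (0.26) was the 1 gene at an unadjusted limma p under 0.05. The groups were apart in 2 of the 13, both higher, where 17.6% of all genes tested were apart.

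TGF-beta signalling genes showed no common direction in bulk cortex, where their level in microglia cannot be read. In microglia sorted at d10 the paper reports lower RNA of TGF-beta, its receptor gene Tgfbr1 and Smad3. Of 15 tested, 8 were higher and 7 lower on average, 0 had an unadjusted limma p under 0.05 and 0 an adjusted p under 0.1, and the median was 0.021 (-0.036 to 0.032 with any one mouse left out). Tgfb1, the ligand that microglia depend on, was at 1.45, 1.28 and 1.68 FPKM in control mice and 2.79, 1.07 and 1.69 FPKM in depleted mice (log2 fold change 0.17), and its receptor gene Tgfbr1 was at -0.028. Tgfbr2 (0.22) and Skil (0.20) were highest, Itgb8 (-0.25) and Ltbp3 (-0.17) lowest. The log2 fold changes of Fcrls (-0.90) and P2ry12 (-0.35) lay below those of all 15 genes, and those of the other 7 signature genes lay within their range or, for Siglech (0.24), just above it.

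Of 12 transcription factor genes tested beside Sall1, 8 were higher and 4 lower on average, 0 with an unadjusted limma p under 0.05 and 0 with an adjusted p under 0.1, and the median was 0.15, or -0.030 without A4. Jun (0.73) and Fos (0.51), which respond to cell activation, were highest, with A4 at 54.9 and 40.7 FPKM against 15.3 FPKM or less in the other mice. Batf3 (-0.11) and Sall3 (-0.097) were lowest. Sall1, by comparison, was 4.29 FPKM in A4 and 3.87 FPKM in control mouse A1.

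Other cell types were compared as a check of the tissue. Neuron markers were at a median log2 fold change of -0.015, astrocyte markers at -0.14 (5 of 6 lower on average, Gja1 -0.19, and 1 higher, Gfap 1.00), oligodendrocyte markers at -0.27 (6 of 6 lower on average, Mag -0.47, Cnp -0.31), endothelial markers at 0.17 and choroid plexus markers at -0.43 (6 of 6 lower on average, Ttr -1.91). The part of these shifts in the levels of the 9 genes was not tested. The neuronal, astrocytic and oligodendrocytic markers were present in every mouse, as were all 9 microglial genes.

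In the mouse genome (GRCm38, GENCODE M21), 4 of the 9 genes lie on chromosome 3: P2ry12 at 59216272 to 59262871, P2ry13 at 59207892 to 59210882, Fcrls at 87250758 to 87263738 and Olfml3 at 103722222 to 103738001, all on the minus strand. Siglech lies on chromosome 7 at 55768178 to 55778925 (plus strand), Tmem119 on chromosome 5 at 113793729 to 113800516 (minus strand), Sall1 on chromosome 8 at 89027235 to 89044162 (minus strand), Cx3cr1 on chromosome 9 at 119901616 to 120069879 (minus strand) and Gpr34 on chromosome X at 13632089 to 13640858 (plus strand). P2ry12 and P2ry13 lie inside Med12l, and Gpr34 lies inside Cask, each on the opposite strand. Without strand-specific counting, reads of such pairs could be shared, and whether strand was used is not given in the sources used here. Med12l was 4.71 ± 0.164 FPKM in control and 4.41 ± 0.358 FPKM in depleted mice (SD, n = 3 each, log2 fold change -0.080), while P2ry12 and P2ry13 inside it differed in opposite directions on average. Cask was at 0.15. The gene model of Cx3cr1 overlaps Csrnp1 on the same strand, which was at 9.52 FPKM in A4 and 3.06 to 3.81 FPKM in the other mice. No transcript window of 75 bases, the read length, was shared with another gene in 8 of the 9 genes, and 0.113% of those of Cx3cr1 were shared with Gm33858 on the opposite strand.

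Depth was read from the spacing of low FPKM values, at about 14.5 M, 20.4 M and 18.3 M fragments for the controls and 13.7 M, 7.12 M and 11.2 M for A4, A5 and A6, with A5 the least certain. At these depths the values of the 9 genes rested on about 53 fragments (Fcrls in A5) to 451 fragments (P2ry12 in A2), or a counting error of 4.71% to 13.7% of the value. For Fcrls the fragments came to about 255, 248 and 361 in control mice and 78, 53 and 131 in depleted mice. By these estimates every depleted library was shallower than every control, so depth and group cannot be told apart.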

How the data were processed

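Cortical RNA of 3 control and 3 depleted mice was analysed, grouped by the labels. The authors used poly(A) selection and 75 bp paired-end reads. The submitters' processing notes name TopHat, RSEM, DESeq and the mm9 build. The table the authors deposited holds TMM-normalized FPKM values per gene and mouse, and raw counts were not used here. The annotation and the tool versions are not given in the sources used here.

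The groups were compared on log2(FPKM + 1) in the 14385 genes whose mean over all 6 mice reached 0.5 FPKM, by linear models in limma 3.58.1 (R 4.3.3, eBayes with a variance trend, no covariate). P-values were adjusted by Benjamini-Hochberg over all of these genes, with a threshold of 0.1. The authors instead used DESeq on raw counts at this threshold, so the genes passing here and there come from unlike models. They called many more genes than the 4 that passed here. An adjusted p of 0.1 or more here thus does not show that a gene did not differ. The fit was tested on simulated data. Single genes, ratios and levels relative to other genes were tested two-sided by exact permutation of the mice. The labels do not say more of the replicates than that they are separate mice, and p-values measure the spread between these mice. Positions came from GENCODE M21 (GRCm38) and promoters from RefSeq (GRCm38.p6), matched by symbol, since the build of the files was not used for sequence. Fragments were estimated from the spacing of low FPKM values, and counting errors cover counting only. The other steps ran in Python 3.11.15 with scipy 1.17.1, pandas 2.3.3, numpy 2.4.6 and matplotlib 3.10.9.

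The 9 genes, the gene lists and the tests were chosen with earlier results of these data known. All 9 genes are named, and from each list of microglial, signalling or adaptor genes the 2 tested genes with the highest and the 2 with the lowest log2 fold change, plus genes picked by role. P2rx4, Gfap, Gja1, Mag, Cnp, Ttr, Ccr9, Gzmb, Ccr2 and Csrnp1 were named with their values in view. The alternatives concerned the pseudocount (0.1), the filter (absent, or 1 FPKM), the scaling (TPM, median of ratios, or quantiles), the variance model (robust, weighted by array, or with no trend), the threshold (0.05) and each mouse in turn left out.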

Additional observations from a re-analysis of the deposited data

How the results depend on the processing

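None of the 9 genes had a limma adjusted p-value under 0.1 under any alternative. Over all genes, 4 passed, against 2 with eBayes without trend, 20 with array weights and 2 to 29 with 1 mouse left out (2 without A1, 22 without A4, 29 without A5, 8 without A6). The count of the 9 genes at an unadjusted p under 0.05 was 1 to 2 with a mouse left out, and the count with groups apart was 3 to 4. Fcrls stayed between -1.14 and -0.70, P2ry12 between -0.42 and -0.29 and Siglech between 0.15 and 0.29 on the log2 scale with a mouse left out.

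The genes near 0 changed sign: Gpr34 was at -0.00080 with quantile normalization and at -0.053 with array weights, which also put Cx3cr1 at -0.030 and Olfml3 at -0.018. With a mouse left out, Gpr34 ran from -0.15 to 0.14, Cx3cr1 from -0.034 to 0.10, Olfml3 from -0.033 to 0.10 and Tmem119 from -0.039 to 0.30, and Gpr34 relative to the other 8 genes from -0.093 to 0.16. The cause was not tested. No paired analysis was possible because the labels give neither the litter of each mouse nor any other pairing. Depth limits the precision most in A5, where the 9 genes rested on about 53 to 167 fragments each.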
